A study of Mus musculus with 55 samples.

Results

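Genes of astrocytes were followed in forebrain cultures that were prepared as neurons. The set holds 35 mouse genes listed by name, with no threshold on measured values, and of each gene the transcript with most counts was used. These genes and the other lists below were chosen with earlier results of these data known. The shares of them called, beside those of all genes, are therefore a description. All 35 had counts in both experiments, among 28492 genes of the maturation table and 28216 of the stimuli table. The filter on low counts kept 31 of the 35 for maturation and 33 for stimuli, and the other genes are given as levels. Several of the 35, such as Vim, Sparc, Cst3, Apoe and Fabp7, are also expressed by other cell types, so that the set describes a group of genes and not a count of cells.

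The cells came from cortex and hippocampus of CD1 mouse embryos of both sexes, taken at embryonic day 16 to 17.5, and the study's methods call the cultures enriched for neurons. The maturation experiment compared cultures at 7 days in vitro (7DIV) with older cultures labelled 23DIV, which the study calls 21DIV, in 28 samples. At each age they were left basal, depolarized with 55 mM KCl, or given 50 μM bicuculline with 2.5 mM 4-aminopyridine (4AP+Bic), and collected after 15 or 180 min. In the stimuli experiment, 27 samples at 21DIV were taken from basal cultures or 15, 45 or 180 min into KCl, bicuculline alone (Bic), both at those doses, or withdrawal of tetrodotoxin (TTXw). Bicuculline blocks GABA-A receptors, 4-aminopyridine blocks potassium channels, and tetrodotoxin (TTX) blocks the sodium channels of action potentials. Basal wells were handled like the stimulated wells without the drug. The TTXw cultures had 1 μM TTX for 48 h before it was washed out by repeated exchanges with fresh medium. Their controls, called basal TTX, had the same TTX, and the study's methods say that control neurons were washed in the same way. KCl and Bic were instead added to the medium already on the cells. A group held 2 to 4 samples, and since the labels do not say that samples are separate cultures, the p-values measure the spread between these samples, which may be technical.

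Astrocytes clear glutamate and potassium from around synapses, convert glutamate to glutamine, and pass ions and metabolites to each other through connexin channels. They arise from the same progenitors as cortical neurons, but later in development. Their transcripts for transporters, lipid carriers and the intermediate filament protein GFAP are low in immature cells, and GFAP is a widely used sign of mature and of reactive astrocytes.

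Levels are in CPM, counts scaled to a common library total, after TMM normalization of each experiment on its own, so that levels can be read across groups of an experiment but not across experiments or between genes. Total counts on genes ranged from 1659722 to 4474968 at 7DIV, from 1784170 to 14012872 in the older samples and from 1177500 to 3909487 in the stimuli experiment. The label of the cultures as neurons was checked on 10 neuronal genes, whose summed level lay between 7466 and 10716 CPM in the maturation experiment and between 4442 and 11331 CPM in the stimuli experiment. The 35 astrocyte genes together reached 3274 to 5134 CPM in the 15 samples at 7DIV, 10318 to 16827 CPM in the 13 older samples, 9102 to 15256 CPM in the 15 samples of the stimuli experiment without TTX and 18875 to 35702 CPM in the 12 samples with TTX. The samples with TTX, here and below, are those of basal TTX and of TTXw, where it had been washed out. Their range did not overlap with that of the samples without TTX. The sum was 20267 to 21298 CPM in basal TTX and 27244 to 35702 CPM at 180 min of TTXw. Apoe and Aldoc had the most counts of the members in both experiments. They weigh most in this sum, so that it need not follow the members with low levels. The 12 microglial markers summed to between 9.61 and 37.8 CPM. In both experiments Tmem119 and Trem2 had 0 counts and the other microglial markers had counts. Transcripts without a matched symbol were left out, so that 0 counts of a marker need not mean that its transcripts were absent. The 8 vascular markers, of which Cldn5 alone had 0 counts, summed to 1.72 to 8.35 CPM at 7DIV, 5.90 to 18.4 CPM in the older samples, 6.30 to 19.4 CPM in the stimuli experiment without TTX and 17.4 to 64.5 CPM with TTX, and the 1 tested was higher at 21DIV, in basal TTX and at 180 min of TTXw (log2 fold changes 1.62, 0.74 and 1.21). In RNA of a whole culture, fewer cells of a type and less RNA per cell cannot be told apart.

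**Figure D1:**
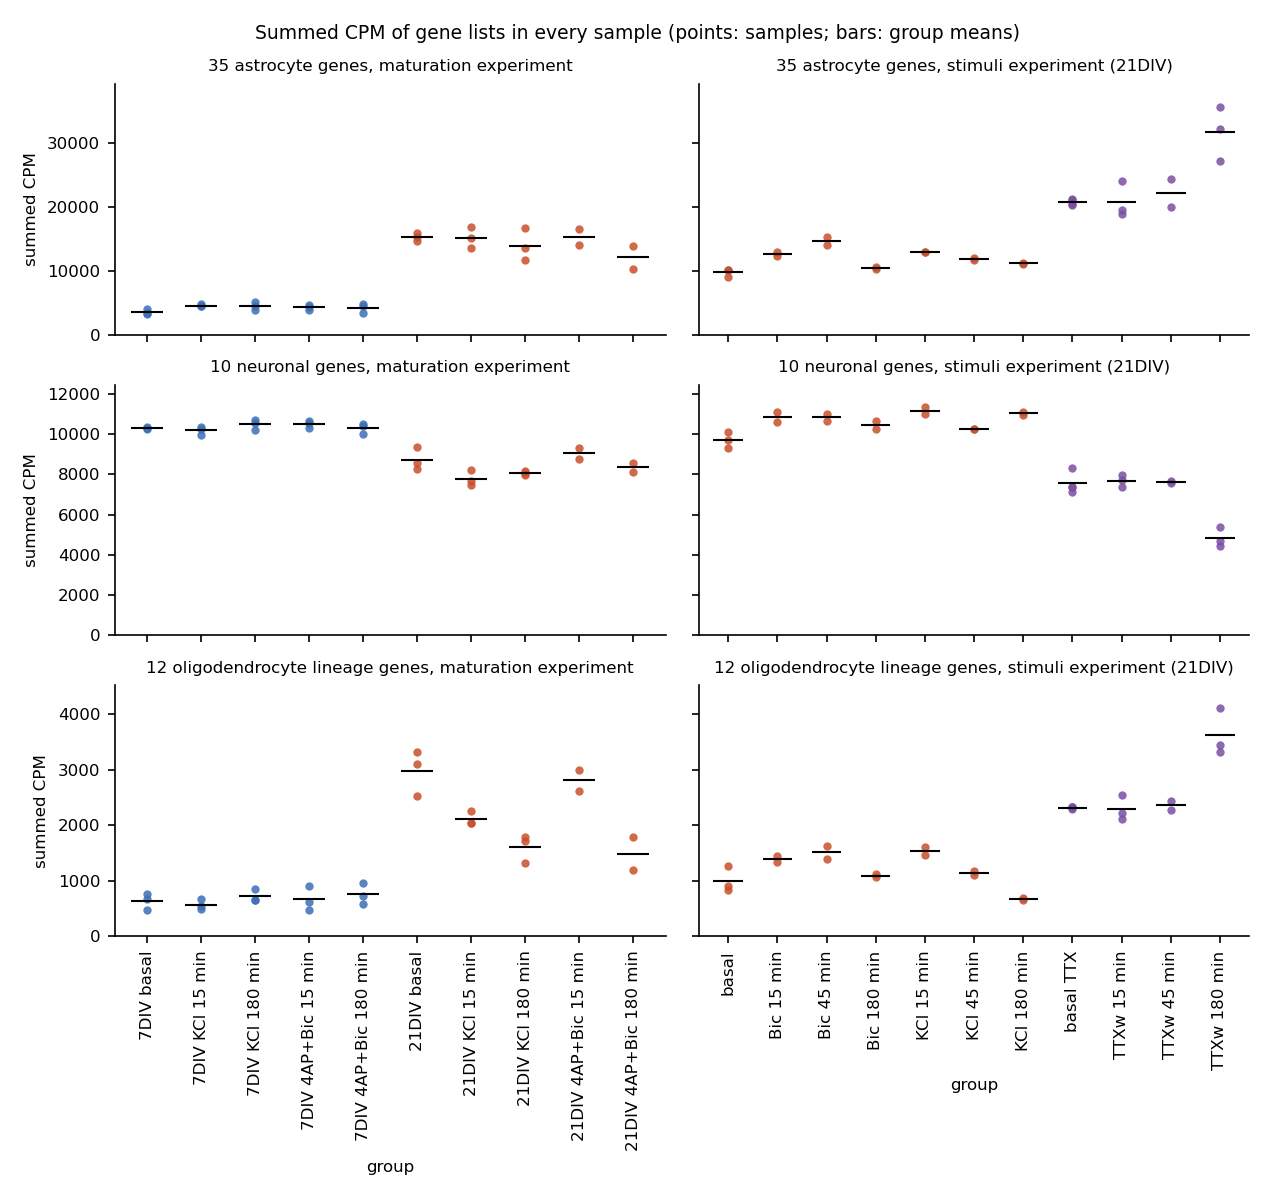
The summed levels of 35 astrocyte genes, 10 neuronal genes and 12 oligodendrocyte lineage genes in each sample of both experiments, in CPM, with 1 point per sample and bars at the group means. The astrocyte genes of the 7DIV samples lie between 3274 and 5134 CPM, below all older samples. Those of the 12 samples of basal TTX and TTXw lie between 18875 and 35702 CPM, above the other samples of their experiment.

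In basal cultures 28 of the 31 genes tested were higher at 21DIV than at 7DIV and 0 were lower, by the quasi-likelihood test of edgeR with p-values adjusted by Benjamini-Hochberg over all genes. A call needed 1.5-fold or more and an adjusted p below 0.05. Of all 10510 genes tested in these 6 samples, 18.2% were called higher. The median log2 fold change of the 31 genes was 2.09, against 0.01 over all genes tested. With Gjb6 and Gpr37l1, which had 0 and 1 counts at 7DIV, set to their bounds it was 2.09 as well. Moving so few genes can shift a median of 31 by little, so that this says little about the other genes. In 27 of the 31 every sample at 21DIV lay above every sample at 7DIV, as in 25.1% of all genes tested. Slc25a18, Gjb6, Gpr37l1 and S100b were under the 5 CPM of the filter in every basal sample at 7DIV, and Gja1 in most. These genes passed the filter only through the samples at 21DIV, so that a call of lower was not open to them. They are counted among the 28 and the 27. All members tested of the transport group (5), the water, ion and junction group (7), the secreted group (6) and the receptor group (3) passed. In the metabolism group 4 of 5 passed, and among filaments, binding proteins and the transcription factor 3 of 5. Aldh1l1, Fabp7 and Vim did not pass.

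**Figure D2:**
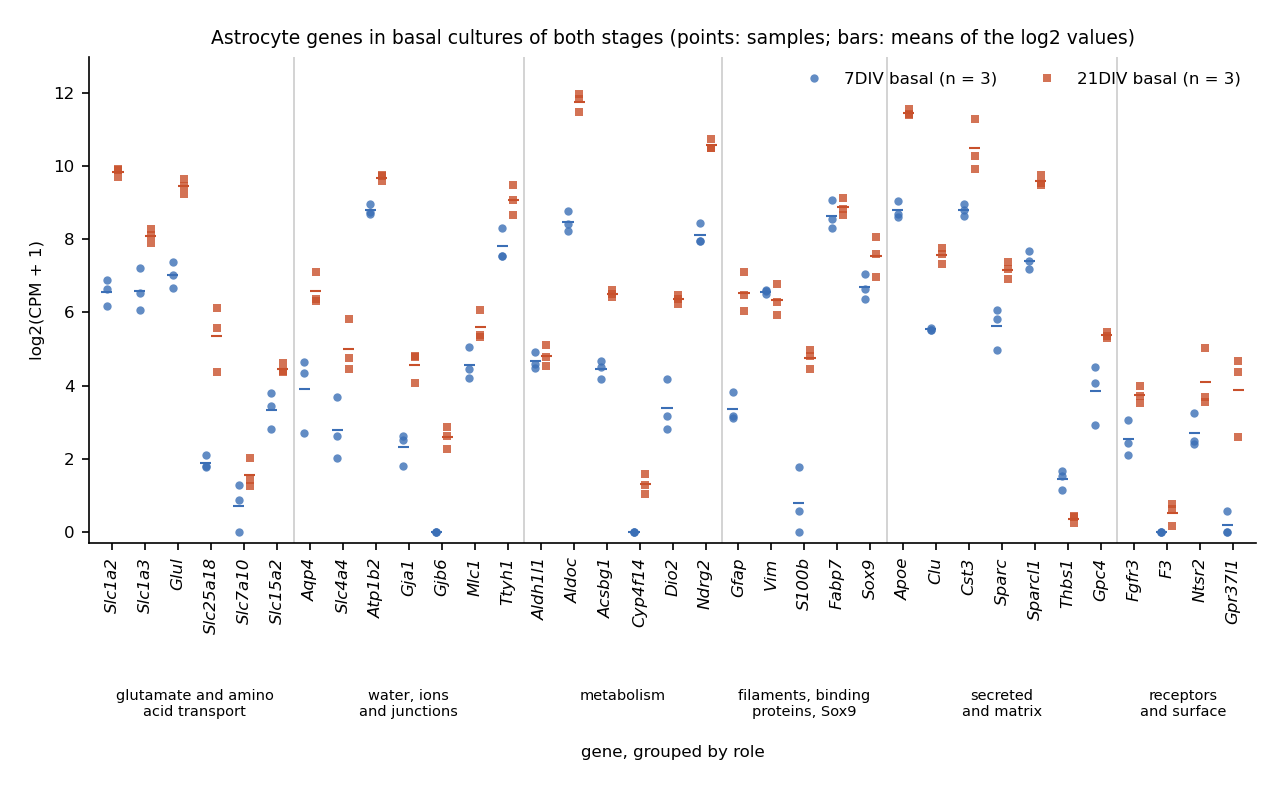
Levels of the 35 astrocyte genes, as log2 of CPM plus 1, in the 3 basal samples at 7DIV (circles) and the 3 at 21DIV (squares) of the maturation experiment, with bars at the means and the genes grouped by role. The groups are apart for 27 of the 31 genes tested, and the points of Aldh1l1, Fabp7 and Vim overlap.

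All 5 transport genes tested rose. Slc1a2, which encodes the glutamate transporter GLT-1, was at 72.0, 98.8 and 117 CPM at 7DIV and at 963, 947 and 839 CPM at 21DIV, a log2 fold change of 3.27 (SE 0.17, adjusted p = 1.32e-08). Slc1a3, which encodes the transporter GLAST, went from 90.9, 65.6 and 147 CPM to 308, 239.6 and 275 CPM, a log2 fold change of 1.44 (SE 0.22, adjusted p = 1.95e-04). Both sets of samples were apart. Glul encodes glutamine synthetase, the enzyme that turns the glutamate taken up into glutamine, and its levels were 100.4, 129 and 167 CPM against 609.6, 704 and 805 CPM, a log2 fold change of 2.43 (SE 0.18, adjusted p = 2.57e-07). Slc25a18, a glutamate carrier of mitochondria, was at 3.32, 2.45 and 2.44 CPM at 7DIV and at 19.7, 68.3 and 46.8 CPM at 21DIV, where its samples differed more from each other than those of Slc1a2, and its log2 fold change was 4.07 (SE 0.48, adjusted p = 1.80e-05). The peptide transporter gene Slc15a2 rose by 1.22 on the log2 scale (SE 0.30).

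All 7 channel, pump and junction genes rose. Aqp4, the water channel of astrocyte endfeet, was at 24.2, 5.52 and 19.2 CPM at 7DIV and at 82.0, 137 and 77.9 CPM at 21DIV, a log2 fold change of 2.56 (SE 0.34, adjusted p = 5.12e-05). Gja1, which encodes connexin 43, was at 4.74, 2.45 and 5.15 CPM and then at 26.6, 15.7 and 26.998 CPM, a log2 fold change of 2.44 (SE 0.34, adjusted p = 8.86e-05). In both genes the lowest sample at 21DIV was above the highest at 7DIV. Gjb6, which encodes connexin 30, had 0 counts in the 3 samples at 7DIV and 99 counts in the 3 at 21DIV, where its level was 5.07 ± 1.25 CPM (SD, n = 3). With 3 counts per library as the floor (0.813 to 1.84 CPM), its level was at least 3.73-fold higher at 21DIV. Slc4a4, a bicarbonate cotransporter, had 11.8, 3.07 and 5.15 CPM against 25.9, 55.8 and 20.8 CPM, a log2 fold change of 2.37 (SE 0.45), and its transcript with the most counts was not the same in the stimuli experiment. Atp1b2, a subunit of the sodium pump, Mlc1, a membrane protein of astrocyte contacts, and Ttyh1, of the tweety family of chloride channels, rose by 0.92, 1.04 and 1.30 on the log2 scale.

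Among the metabolic genes, Aldoc and Dio2 rose most. Aldoc, the aldolase of glycolysis that is typical of astrocytes, was at 342, 302 and 437 CPM and then at 2856, 4019.5 and 3692 CPM, a log2 fold change of 3.31 (SE 0.16, adjusted p = 1.32e-08). Dio2 encodes the deiodinase that makes the active thyroid hormone in astrocytes, and it went from 8.05, 17.2 and 5.96 CPM to 88.7, 82.3 and 74.2 CPM, a log2 fold change of 3.12 (SE 0.29, adjusted p = 2.09e-06). Acsbg1, an acyl-CoA synthetase of fatty acid metabolism, was at 21.8, 17.2 and 24.4 CPM against 84.7, 96.6 and 89.1 CPM, a log2 fold change of 2.09 (SE 0.18, adjusted p = 1.23e-06). All 3 genes had separate groups of samples. Ndrg2 rose by 2.48 (SE 0.15). Aldh1l1, a folate enzyme used as a marker of all astrocytes, was an exception, with 29.4, 23.3 and 21.4 CPM at 7DIV and 33.7, 22.2 and 26.4 CPM at 21DIV. Its groups overlapped, and its log2 fold change was 0.19 (SE 0.23, adjusted p = 0.558).

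Gfap, the intermediate filament gene of mature astrocytes, was at 7.58, 7.97 and 13.3 CPM at 7DIV and at 88.7, 137 and 64.3 CPM at 21DIV, a log2 fold change of 3.28 (SE 0.31, adjusted p = 2.87e-06). S100b, a calcium binding protein, had 0.474, 0 and 2.44 CPM against 21.1, 27.2 and 30.3 CPM, which rested on few counts at 7DIV, and its log2 fold change was 4.35 (SE 0.48, adjusted p = 9.91e-06). The samples at 7DIV were low for both genes without exception. Vim, a filament gene that immature astrocytes and their progenitors also express, was at 94.7, 89.6 and 96.2 CPM at 7DIV and at 77.6, 109 and 59.7 CPM at 21DIV. Fabp7, the lipid binding protein of radial glia and astrocytes, was at 373, 318 and 543 CPM and at 409, 563 and 453 CPM. The groups overlapped in both genes, with log2 fold changes of -0.17 (SE 0.20) and 0.23 (SE 0.18). Sox9, a transcription factor of glial cells and their progenitors, rose by 0.92 (SE 0.24, adjusted p = 0.00805), with 1 sample at 21DIV, at 124 CPM, inside the range at 7DIV.

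The 6 secreted proteins tested rose as well. Apoe, the lipid carrier of the brain, was at 416, 392 and 534 CPM at 7DIV and at 3020.3, 2765 and 2686 CPM at 21DIV, a log2 fold change of 2.68 (SE 0.13, adjusted p = 1.32e-08). Clu, which encodes clusterin, went from 46.4, 44.8 and 45.2 CPM to 193, 160.4 and 217 CPM, a log2 fold change of 2.09 (SE 0.16, adjusted p = 3.96e-07). Sparcl1, which encodes hevin, a protein that promotes synapses, was at 146, 167 and 203 CPM against 874, 749.9 and 718 CPM, a log2 fold change of 2.21 (SE 0.15, adjusted p = 1.02e-07). None of these groups overlapped. Cst3, a protease inhibitor, Sparc, an antagonist of hevin, and Gpc4, a glypican, rose by 1.83, 1.58 and 1.44 on the log2 scale. Of the receptors, Gpr37l1 had 1 count in 3 samples at 7DIV and 343 counts in 3 at 21DIV, a ratio of 125 with a 95% interval of 22.3 to 4947 for counting error only. Fgfr3 and Ntsr2, a neurotensin receptor, rose by 1.39 and 1.67. Fgfr3, Ntsr2, Slc15a2 and Sox9 did not pass with the replicate number as a block.

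Other glial genes moved between these stages too. Of 36 further astrocyte genes, 29 were tested, 22 were higher and 2 lower at 21DIV, with a median log2 fold change of 1.97. All 10 genes tested of 12 oligodendrocyte lineage genes were higher, with a median of 2.71, and their summed level went from between 474 and 751 CPM in the basal samples at 7DIV to between 2519 and 3323 CPM at 21DIV. Of 10 neuronal genes, 6 were higher and 3 lower. The part of the other cell types in the change of single members was not tested.

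Promoter sequences are shown for Gfap, Aldoc and Acsbg1, because their levels moved in the basal comparison and again under the stimuli described next, and because their windows hold the letters TTCNNNGAA, the form recognized by STAT factors, which are known regulators of Gfap. RefSeq windows of GRCm38.p6, from 250 bases before to 50 bases after a start site, were found for 29 of the 35 genes. Capitals mark TTCNNNGAA, which reads the same on both strands. The Gfap window is chr11:102897151-102897450 on the minus strand, with the gene at chromosome 11, 102887336 to 102897200, and the match begins 2 bases before the start site and runs across it. The Aldoc window is chr11:78323948-78324247 on the plus strand, at 1 of the gene's start sites, inside the gene at 78323073 to 78327781, and its matches begin 124 and 83 bases before the start site. The Acsbg1 window is chr9:54661836-54662135 on the minus strand, with the gene at chromosome 9, 54604886 to 54661885, and its match begins 26 bases before the start site.
Gfap: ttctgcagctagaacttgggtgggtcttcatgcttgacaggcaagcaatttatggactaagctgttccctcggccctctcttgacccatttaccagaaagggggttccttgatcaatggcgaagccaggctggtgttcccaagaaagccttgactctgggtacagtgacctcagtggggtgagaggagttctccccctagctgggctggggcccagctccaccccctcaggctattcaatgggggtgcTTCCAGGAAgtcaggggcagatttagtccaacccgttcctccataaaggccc
Aldoc: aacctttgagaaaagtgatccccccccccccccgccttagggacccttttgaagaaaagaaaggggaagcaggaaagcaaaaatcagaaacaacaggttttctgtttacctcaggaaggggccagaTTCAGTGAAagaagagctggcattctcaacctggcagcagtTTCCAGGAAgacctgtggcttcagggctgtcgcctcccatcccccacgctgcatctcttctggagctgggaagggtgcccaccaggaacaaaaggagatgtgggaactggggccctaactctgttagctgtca
Acsbg1: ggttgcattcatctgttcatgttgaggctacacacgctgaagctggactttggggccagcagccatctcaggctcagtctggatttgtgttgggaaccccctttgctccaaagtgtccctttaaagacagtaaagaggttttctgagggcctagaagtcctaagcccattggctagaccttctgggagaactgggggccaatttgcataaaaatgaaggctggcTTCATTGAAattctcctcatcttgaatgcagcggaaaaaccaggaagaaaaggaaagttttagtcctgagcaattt

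The letters TTCNNNGAA stood in 5 of the 39 windows of the 29 genes, those not shown being of Ntsr2 and Slc1a3, and in 8.298% of 32851 windows of all genes. TGACGTCA, the site of CREB, stood in 1 of the 39 windows, of Dio2, and in 1.79% of all windows. TGANTCA, the site of AP-1, was found in 2 of the 39, of F3 and Gja1, and in 7.808% of all windows. AACAAT, a form bound by SOX factors, and TTGGC with GCCAA 5 bases after it, the form of NFI, were found in 0 of the 39 windows, against 10.72% and 0.03653% of all windows. Both strands were searched, a match is not a measured binding site, and no match says only that these letters are not in the window.

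Whether activity changed these genes was asked first at each age of the maturation experiment, where each stimulus was compared with the basal samples of the same age, which all 4 comparisons of an age share. At 7DIV 1 of the 31 genes was called in 4 comparisons. Sox9 was at 131, 82.2 and 99.1 CPM in basal samples and at 184, 248 and 239 CPM after 180 min of KCl, with no overlap and a log2 fold change of 1.10 (SE 0.29, adjusted p = 0.0365). In that comparison 1.05% of all genes were called higher. Sox9 was no longer called when basal replicate 3 or 4 or KCl replicate 2 or 3 was left out, with counts summed over transcripts or with the replicate block, which left 0 genes. The log2 ratio of Xist to Y-linked transcripts, which depends on the sexes of the embryos in a culture, was -0.136, 0.167 and -0.0642 in these KCl samples and 0.822, 0.250 and 1.21 in the basal samples, with no overlap, and its part in the result was not tested. No member was called after 15 min of KCl, 15 min of 4AP+Bic or 180 min of 4AP+Bic, and neither was any other gene (0% in each). By unadjusted p under 0.05, 6, 4 and 2 of the 31 genes passed in these comparisons with edgeR, and DESeq2 called 0 in each.

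**Figure D3:**
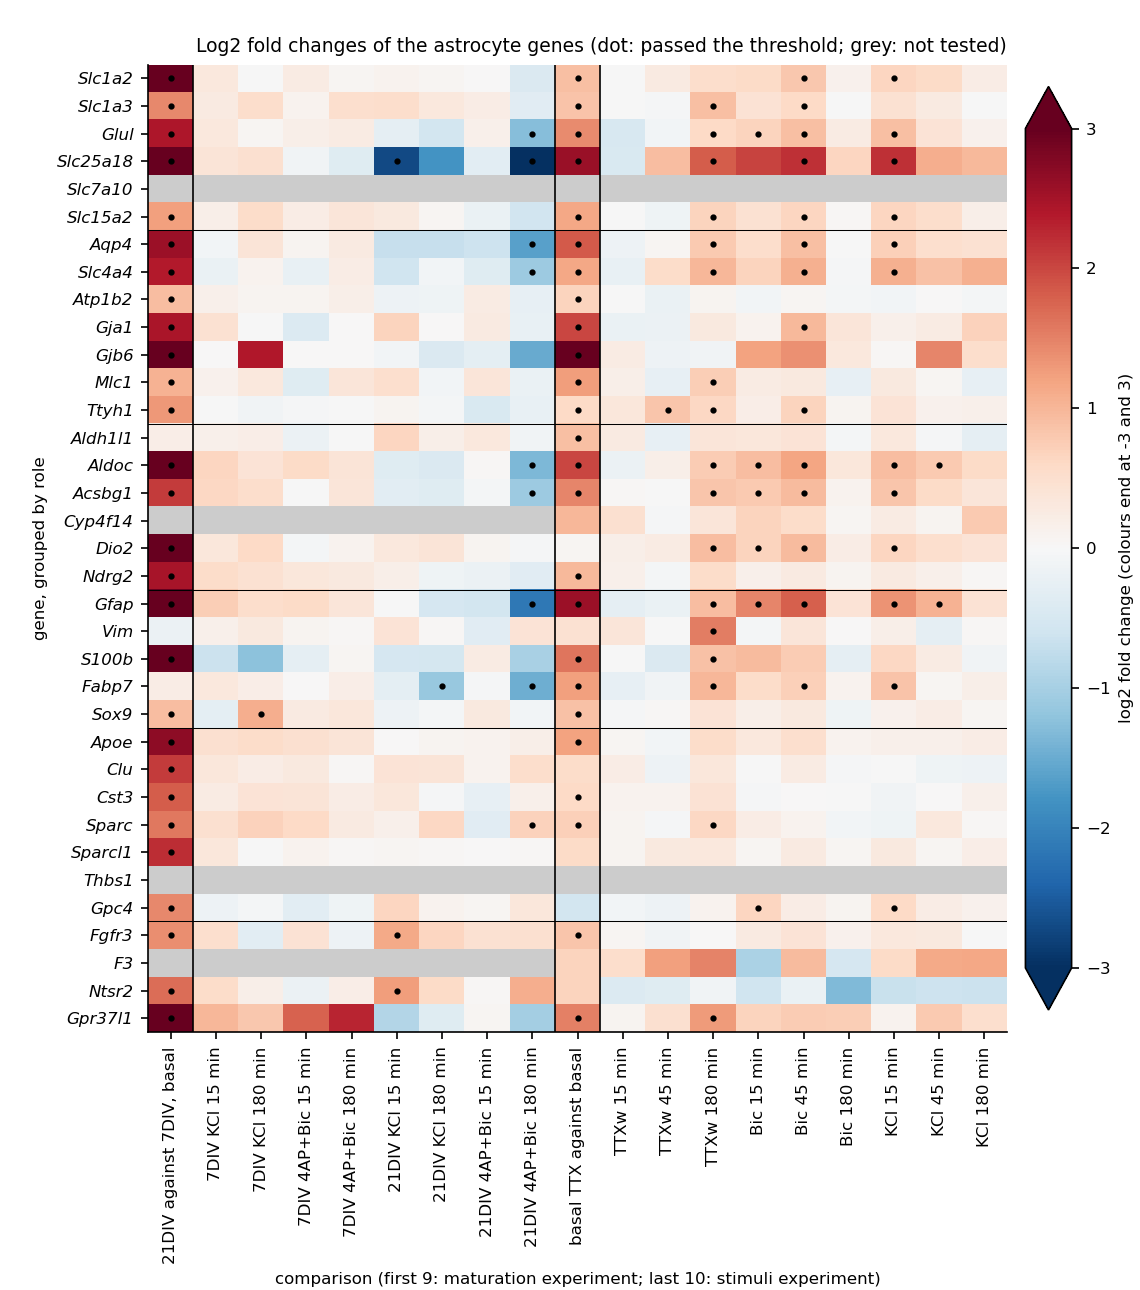
Log2 fold changes of the 35 astrocyte genes, by role, in 19 comparisons, from blue (lower) to red (higher), with a dot where a gene passed an adjusted p under 0.05 and 1.5-fold and grey where it was not tested. The columns of the basal ages and of basal TTX against basal are red for most genes, and the blue dots stand at 21DIV with KCl and 4AP+Bic.

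At 21DIV 8 of the 31 genes were lower and 1 was higher after 180 min of 4AP+Bic, and 0 were called after 15 min. At 180 min 6.84% of all genes tested were called lower and 7.39% higher, and the median log2 fold change of the members was -0.25, against -0.02 over all genes. The 8 genes that fell were Gfap, Slc25a18, Aqp4, Fabp7, Aldoc, Glul, Slc4a4 and Acsbg1, and the gene that rose was Sparc. All 17 genes tested of the transport, water and metabolism groups had negative log2 fold changes, and all 6 secreted proteins had positive ones. Some were near 0, such as -0.027 in the metabolism group and 0.030 among the secreted proteins. Negative values were found in 4 of 5 filament, binding protein and transcription factor genes and in 1 of 3 receptors. Signs of genes in the same samples are not independent. At 15 min 0.0511% of all genes were called, 0 members passed an unadjusted p under 0.05 with edgeR, and DESeq2 called 0.

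Gfap was at 88.7, 137 and 64.3 CPM in the basal samples at 21DIV, at 54.8 and 75.9 CPM after 15 min of 4AP+Bic and at 11.8 and 33.1 CPM after 180 min. Both samples at 180 min were below the 3 basal samples, with a log2 fold change of -2.14 (SE 0.40, adjusted p = 3.89e-04). Slc25a18 fell furthest, from 19.7, 68.3 and 46.8 CPM to 1.29 and 5.97 CPM, a log2 fold change of -3.72 (SE 0.77, adjusted p = 0.00117). Aqp4 was at 82.0, 137 and 77.9 CPM and then at 12.9 and 52.1 CPM, a log2 fold change of -1.64 (SE 0.45, adjusted p = 0.0112). Fabp7 went from 409, 563 and 453 CPM to 101 and 246 CPM, a log2 fold change of -1.46 (SE 0.29, adjusted p = 7.95e-04). In all 4 genes the groups were apart, and the lower of the stimulated samples was replicate 2. Separate groups in genes already called describe the samples and are no further evidence, here and in the comparisons below. For 4AP+Bic, KCl, Bic and TTXw the share of all genes with groups apart was not computed.

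Aldoc was at 2856, 4019.5 and 3692 CPM in basal samples and fell to 905 and 1858 CPM, a log2 fold change of -1.35 (SE 0.29, adjusted p = 0.00182). Glul fell from 609.6, 704 and 805 CPM to 167 and 420.5 CPM, with -1.27 (SE 0.28, adjusted p = 0.00236). Acsbg1 fell from 84.7, 96.6 and 89.1 CPM to 23.9 and 62.4 CPM, with -1.08 (SE 0.29, adjusted p = 0.0107). Slc4a4 fell from 25.9, 55.8 and 20.8 CPM to 12.9 and 19.3 CPM, with -1.09 (SE 0.38, adjusted p = 0.0463). Every one of these stimulated samples lay below the basal samples. The call of Slc4a4 was lost with counts summed over transcripts, with the replicate block and in the fit on the compared groups only. It was also lost without basal replicate 2, and on leaving out 1 library its log2 fold change ran from -1.41 to -0.55. Sparc moved the other way, from 121, 166 and 146 CPM to 231 and 233 CPM, with 0.69 (SE 0.24, adjusted p = 0.0450) and no overlap. The call of Sparc was lost in each of the 5 fits that left out 1 library, with counts summed over transcripts and with the replicate block (highest adjusted p 0.185). Apoe, the lipid carrier, was at 2959 and 3397 CPM and was not called (log2 fold change 0.17 (SE 0.18)), and Slc1a2 was at 540.0 and 811 CPM, below its basal samples and not called either (-0.44 (SE 0.18)).

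**Figure D4:**
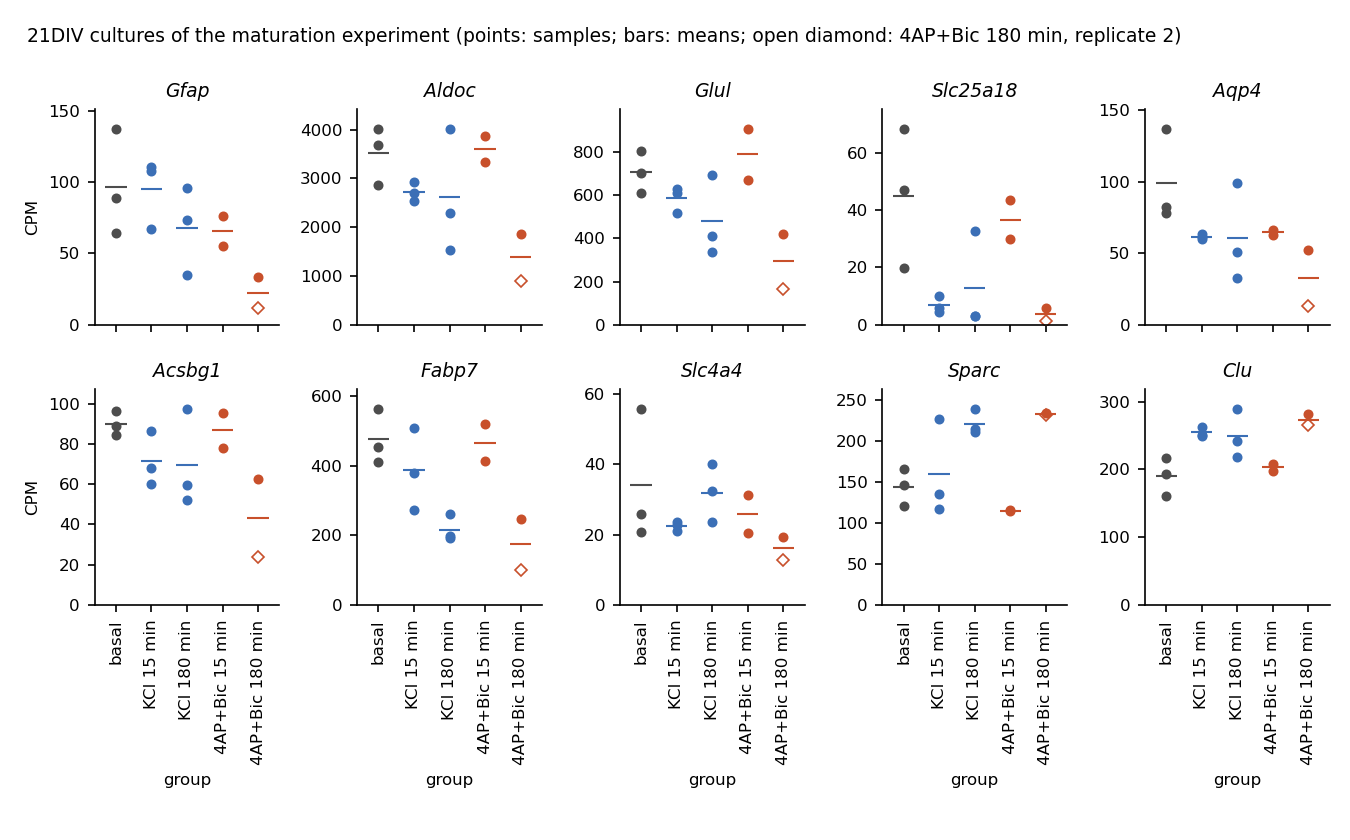
Levels in CPM of the 9 genes called after 180 min of 4AP+Bic and of Clu, in the 13 samples of the maturation experiment at 21DIV, with 1 point per sample, bars at the means and an open diamond for replicate 2 of 4AP+Bic at 180 min. Both samples at 180 min of 4AP+Bic lie below the basal samples for 8 genes and above them for Sparc and Clu, which was not called.

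The count depended on 1 library. Without 4AP+Bic replicate 2 at 180 min, 1 of the 31 genes was called instead of 9, and that gene was Gfap, with a log2 fold change of -1.55 (SE 0.46, adjusted p = 0.0439). Here the lone sample was assumed to vary like the other groups. Without replicate 3, 10 were called, and without basal replicate 1 or 2, 11 and 6. The summed level of the 35 genes was 10318 CPM in replicate 2 and 13845 CPM in replicate 3, against 14618 to 15896 CPM in the basal samples. The neuronal list stood at 8109 and 8584 CPM in the 2 stimulated samples and at 8284 to 9360 CPM in the basal samples. The oligodendrocyte lineage list was at 1185 and 1789 CPM against 2519 to 3323 CPM, and 4 of its genes were lower and 2 higher. Its part in the result was not tested. Of the 36 further astrocyte genes, 31 were tested, 8 were lower, among them the potassium channel genes Kcnj16 (-3.10) and Kcnj10 (-2.24), and 0 were higher, with a median log2 fold change of -0.58.

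The difference between the ages was tested as an interaction, the log2 response at 21DIV minus that at 7DIV. With 4AP+Bic for 180 min it was negative and past the threshold for 5 members, where 2.38% of all genes were called with a negative interaction. Gfap was at 17.4, 8.59 and 13.6 CPM in stimulated samples at 7DIV, with a log2 fold change of 0.37 (SE 0.45) there, and its interaction was -2.51 (SE 0.59, adjusted p = 0.0123). The interactions of Aldoc, Fabp7, Glul and Acsbg1 were -1.73 (SE 0.39), -1.67 (SE 0.38), -1.52 (SE 0.38) and -1.45 (SE 0.42), with adjusted p-values of 0.00890, 0.0103, 0.0180 and 0.0397. The median over the 31 genes was -0.50. The count was 0 without 4AP+Bic replicate 2 at 180 min at 21DIV, 3 without basal replicate 2 at 7DIV, and 8 without replicate 3 of 4AP+Bic. For 4AP+Bic at 15 min, KCl at 15 min and KCl at 180 min, 0 members had an interaction past the threshold, where 0.00851%, 2.03% and 0.775% of all genes did, and 2, 5 and 6 members had an unadjusted p under 0.05 with edgeR and 0 were called by DESeq2.

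After KCl few members were called at 21DIV. After 15 min Fgfr3, the fibroblast growth factor receptor of astrocytes, was at 26.3, 29.8 and 25.98 CPM against 14.9, 12.2 and 10.5 CPM, with no overlap and a log2 fold change of 1.13 (SE 0.35, adjusted p = 0.0390). Ntsr2 was at 51.8, 56.95 and 18.7 CPM against 31.5, 11.98 and 10.7 CPM, where the groups overlapped, with a log2 fold change of 1.25 (SE 0.40, adjusted p = 0.0483). Slc25a18 fell to 5.89, 4.53 and 10.1 CPM, below the basal samples, with a log2 fold change of -2.71 (SE 0.58, adjusted p = 0.00363). These were 3 of 31 genes, and 6.23% of all genes were called in either direction. Without basal replicate 1 the count was 6, and it was 1 without basal replicate 2 or 3 or KCl replicate 1 or 2. After 180 min Fabp7 alone passed, at 260.3, 191 and 197 CPM, below its basal samples, with a log2 fold change of -1.14 (SE 0.25, adjusted p = 0.00519), where 1.91% of all genes were called lower. Without KCl replicate 1 at 180 min, 5 members were called, and without basal replicate 1, 2. In that replicate the summed level of the 35 genes was 16631 CPM, against 11652 and 13595 CPM in the other KCl samples.

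In the stimuli experiment the 48 h of TTX, compared with untreated basal cultures, went with higher levels of 25 of the 33 genes tested and lower levels of 0. Of all genes tested, 10.8% were called higher, and the median log2 fold change of the members was 0.98, against 0.00 over all genes. The groups were apart in 29 of the 33, with 28 higher and 1, Gpc4, lower, where 16.4% of all genes were apart and higher and 18.8% apart and lower. All 5 transport genes and all 7 water, ion and junction genes tested passed, as did 4 of 6 metabolic genes, 4 of 5 filament, binding protein and transcription factor genes, 3 of 6 secreted proteins and 2 of 4 receptors.

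Gfap was at 102, 195 and 83.0 CPM in basal samples and at 757, 734, 544 and 961 CPM in basal TTX, a log2 fold change of 2.57 (SE 0.20, adjusted p = 8.85e-13). Every TTX sample was above every basal sample by a wide margin. Aldoc was at 930.0, 950.4 and 840.4 CPM and at 3345, 3167, 3971 and 3956 CPM, a log2 fold change of 1.99 (SE 0.13, adjusted p = 3.82e-15). Aqp4 was at 94.3, 93.4 and 66.0 CPM and at 347, 247, 305 and 312 CPM, with 1.84 (SE 0.17, adjusted p = 6.62e-11). Gja1 was at 27.8, 28.7 and 21.6 CPM and at 132, 94.1, 99.4 and 96.5 CPM, with 2.01 (SE 0.24, adjusted p = 1.65e-08). For these channel and junction genes no sample of a group reached the other. Slc1a2 and Slc1a3, the glutamate transporters, went from 989.6, 1049.8 and 882 CPM to 1949.6, 1644, 1969.9 and 1769.7 CPM and from 535, 642 and 529 CPM to 1199, 1028, 931 and 967 CPM. Their log2 fold changes were 0.91 (SE 0.12) and 0.86 (SE 0.12), smaller than that of Glul (1.41 (SE 0.16)), although these differences between genes were not tested.

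Aldh1l1 and Fabp7, which had not passed between the ages, did so here. Aldh1l1 was at 22.6, 27.5 and 19.0 CPM and at 46.6, 47.04, 42.2 and 37.97 CPM, a log2 fold change of 0.90 (SE 0.18, adjusted p = 1.09e-04). Fabp7 was at 217, 206 and 154 CPM and at 463, 364, 491 and 499.7 CPM, with 1.24 (SE 0.18, adjusted p = 7.74e-07). In both, the groups were apart. Apoe went from 1879, 1859.6 and 1877 CPM to 4192, 4495, 4041 and 4505 CPM, with 1.20 (SE 0.09, adjusted p = 3.40e-13). The genes that did not pass were Clu (0.54), Sparcl1 (0.58), Vim (0.45), Dio2 (0.05), Gpc4 (-0.55), Ntsr2 (0.66), Cyp4f14 (1.00) and F3 (0.66). Dio2 was at 158, 149.6 and 128 CPM and 144, 185, 127 and 145 CPM, with overlap. Gpc4 was lower in each of the TTX samples, at 37.8, 45.4 and 45.5 CPM and 36.6, 21.5, 25.03 and 32.5 CPM, with an adjusted p of 0.0105 and a change under 1.5-fold.

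Other lists moved with TTX. Of the 36 further astrocyte genes, 28 of 34 tested were higher and 0 lower, with a median log2 fold change of 1.33. Oligodendrocyte lineage genes were higher in 7 of 10 and lower in 0, and their sum was at 823 to 1270 CPM in basal and at 2292 to 2330 CPM in basal TTX samples. The sum of the 10 neuronal genes was lower, at 9303 to 10105 CPM in basal and 7148 to 8316 CPM in basal TTX samples, and 2 of the 10 genes, Nefl and Snap25, were called lower. The log2 ratio of Xist to Y-linked transcripts lay between 1.29 and 2.21 in the 12 samples with TTX and between 0.453 and 1.23 in the 15 without, with no overlap. The labels do not give the culture preparation of a sample. By the study's methods the control neurons of TTXw were washed with fresh medium, which is not stated for the basal wells. TTX, washing and a difference between preparations cannot be told apart for the 25 genes.

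After TTX was washed out the genes were compared with basal TTX. At 15 min 0 of 33 genes were called, as were 0% of all genes, with 4 members at an unadjusted p under 0.05 by edgeR and 0 called by DESeq2. At 45 min Ttyh1 was called, at 2184 and 1439 CPM against 1175, 1127, 988 and 795 CPM, with no overlap and a log2 fold change of 0.83 (SE 0.18, adjusted p = 0.0141), where 0.349% of all genes were higher. It was lost without basal TTX replicate 4 or TTXw replicate 1, which left 0 genes. In the TTXw samples at 45 min the log2 ratio of Xist to Y-linked transcripts was 1.31 and 1.53. It was 1.67 to 2.21 in basal TTX, with no overlap, and its part in the call of Ttyh1 was not tested. At 180 min 17 genes were higher and 0 lower, where 7.33% of all genes were called higher, with a median log2 fold change of 0.63 against 0.02 over all genes. These were 4 transport genes, 4 water, ion and junction genes, 3 metabolic genes, 4 filament and binding protein genes, Sparc and Gpr37l1.

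Vim, which had not moved with age or with TTX beyond the threshold, was at 254, 258 and 238 CPM at 180 min of TTXw against 106, 106, 54.4 and 77.4 CPM in basal TTX, with no overlap and a log2 fold change of 1.54 (SE 0.16, adjusted p = 3.35e-09). Gfap was at 1072, 1599 and 1583 CPM against 757, 734, 544 and 961 CPM, a log2 fold change of 0.92 (SE 0.18, adjusted p = 2.13e-04). Slc1a3 rose to 1601, 2514 and 1643 CPM, with 0.90 (SE 0.11, adjusted p = 1.60e-07), and Slc1a2, the other glutamate transporter, reached 2669.8, 2737 and 2468 CPM and did not pass, with 0.52 (SE 0.12). For all 4 genes the samples at 180 min lay above those of basal TTX. Dio2 was at 298, 303 and 254 CPM, above the basal TTX samples, with 0.92 (SE 0.14, adjusted p = 3.22e-06). Fabp7 was at 691, 983 and 1037 CPM, with 0.99 (SE 0.17, adjusted p = 3.13e-05). Slc25a18 varied most between samples, at 28.1, 75.7 and 175 CPM against 10.6, 9.87, 42.9 and 37.97 CPM, and its groups overlapped. Gja1, Gjb6, Atp1b2 and Aldh1l1, which were higher in basal TTX than in basal, were not called at 180 min, with log2 fold changes of 0.29, -0.11, 0.08 and 0.37.

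At 180 min of TTXw the lists of other cells differed from basal TTX as well. The neuronal genes summed to 4442 to 5395 CPM, below the 7148 to 8316 CPM of basal TTX, with 6 of 10 genes lower and 0 higher. The oligodendrocyte lineage genes summed to 3318 to 4109 CPM, above the 2292 to 2330 CPM of basal TTX, with 7 of 10 higher. CPM are shares of a total, and the part of the lower neuronal transcripts in the higher share of the 17 genes was not tested. Of the 36 further astrocyte genes, 13 of 34 were higher and 0 lower, with a median of 0.54.

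Bic and KCl in the stimuli experiment were compared with the untreated basal samples, which these comparisons and that of basal TTX share. With Bic 6 of the 33 genes were higher at 15 min and 14 at 45 min, where 2.4% and 4.5% of all genes were called higher. At 180 min of Bic 0 members were called, and 0.765% of all genes were called in either direction. With KCl 12 members were higher at 15 min and 2 at 45 min, where 4.52% and 0.607% of all genes were called higher. At 180 min of KCl 0 members and 0.765% of all genes were called in either direction. No member was called lower in any of the 6 comparisons. The median log2 fold changes of the members were 0.43, 0.63 and 0.06 with Bic and 0.33, 0.25 and 0.17 with KCl. At 180 min, 3 members with Bic and 5 with KCl had an unadjusted p under 0.05 by edgeR, and DESeq2 called 0 and 2. The differences between the time points were not tested. The log2 ratio of Xist to Y-linked transcripts was 0.940 to 1.23 in the basal samples, and below that range in both samples of Bic at 15 min (0.628 and 0.491), KCl at 15 min (0.476 and 0.516) and KCl at 180 min (0.552 and 0.801). It was below that range in 1 of 2 samples of Bic at 45 min (0.582 and 1.11) and of KCl at 45 min (0.453 and 1.04), and within it with Bic at 180 min. A difference between culture preparations and the stimulus cannot be told apart where these groups do not overlap.

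Gfap was at 102, 195 and 83.0 CPM in the basal samples. With Bic it was at 326 and 375 CPM at 15 min, 536 and 345 CPM at 45 min and 161 and 175 CPM at 180 min. The samples at 15 and 45 min were above all basal samples and those at 180 min among them. Its log2 fold changes were 1.46 (SE 0.23, adjusted p = 6.02e-05), 1.80 (SE 0.22, adjusted p = 3.25e-07) and 0.41 (SE 0.23, adjusted p = 0.640). With KCl it was at 367 and 281 CPM, 284 and 235 CPM and 164 and 175 CPM at these times, with log2 fold changes of 1.35 (SE 0.22, adjusted p = 7.02e-05), 1.04 (SE 0.23, adjusted p = 0.0139) and 0.43 (SE 0.24, adjusted p = 0.485). Aldoc was at 930.0, 950.4 and 840.4 CPM in basal samples, 1729.8 and 1697, then 2108 and 1981, then 1222 and 1086 CPM with Bic, and 1722 and 1702, then 1538 and 1565, then 1365 and 1328 CPM with KCl. All its stimulated samples, also those at 180 min, lay above the basal samples. Its log2 fold change with Bic at 45 min was 1.17 (SE 0.14, adjusted p = 2.52e-07), and with KCl at 180 min it was 0.57 (SE 0.15, adjusted p = 0.0472), under 1.5-fold.

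**Figure D5:**
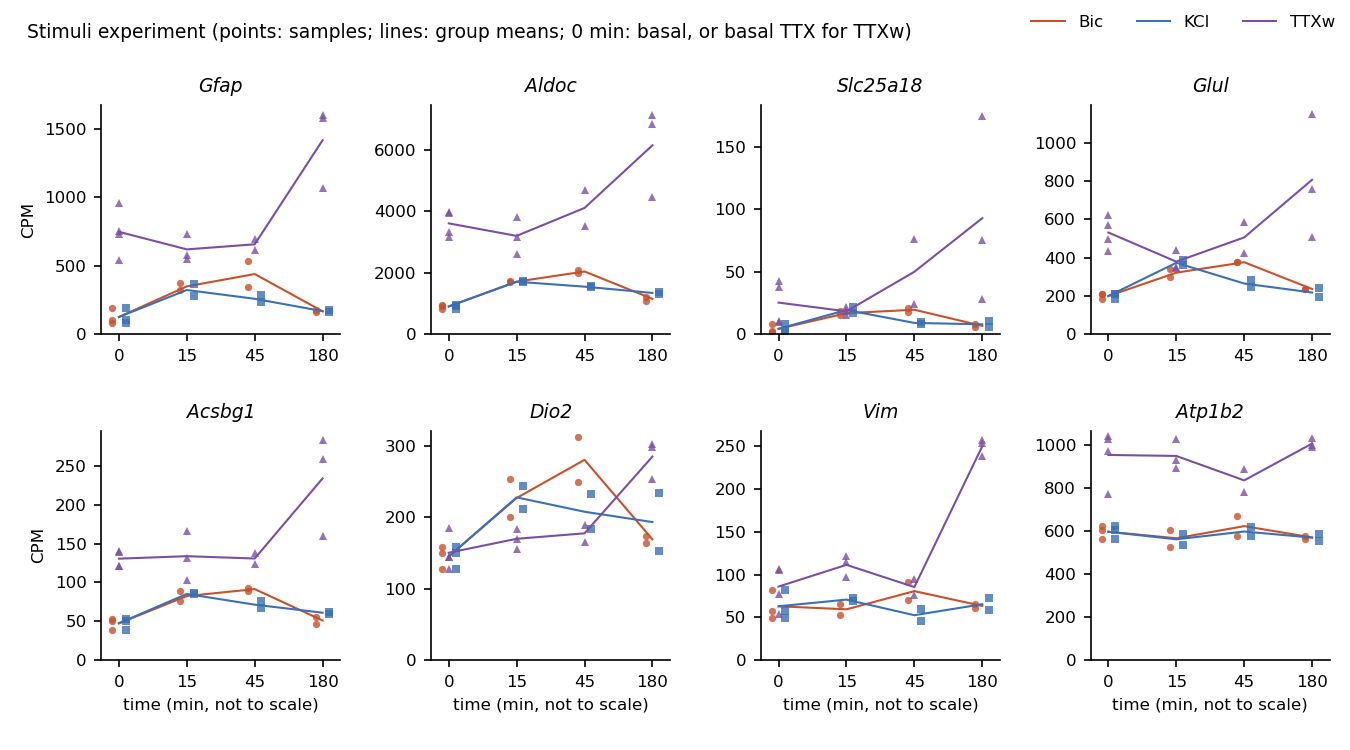
Levels in CPM of 8 astrocyte genes in the 27 samples of the stimuli experiment, by time after the stimulus (not to scale, with basal or, for TTXw, basal TTX at 0 min), with 1 point per sample and lines through the group means. With Bic and KCl the points of Gfap at 180 min, between 161 and 175 CPM, lie within the basal range, and with TTXw those of Vim at 180 min, from 238 to 258 CPM, lie above all others.

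Glutamate handling genes were among those that rose early. Slc25a18 was at 2.01, 8.56 and 2.65 CPM in basal samples, 21.4 and 17.9 CPM at 45 min of Bic and 17.1 and 21.8 CPM at 15 min of KCl, with log2 fold changes of 2.19 (SE 0.62, adjusted p = 0.0200) and 2.19 (SE 0.62, adjusted p = 0.0185). Glul was at 208, 184 and 208 CPM, 375 and 378 CPM and 361 and 387 CPM in the same groups, with 0.91 (SE 0.19, adjusted p = 8.64e-04) and 0.90 (SE 0.19, adjusted p = 0.00110). Slc1a2 was at 989.6, 1049.8 and 882 CPM, 1817 and 1578 CPM and 1515 and 1539 CPM, with 0.80 (SE 0.14, adjusted p = 1.76e-04) and 0.65 (SE 0.14, adjusted p = 0.00220). The stimulated samples of all 3 were above the basal samples. The call of Slc25a18 with Bic was lost without basal replicate 1 or 5 or either Bic sample. Slc1a3 was called with Bic at 45 min (0.59 (SE 0.14)) and not with KCl at 15 min (0.47 (SE 0.14)).

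Acsbg1 was at 50.4, 52.5 and 39.04 CPM in basal samples, 89.5 and 93.2 CPM at 45 min of Bic and 84.5 and 85.7 CPM at 15 min of KCl, with 0.95 (SE 0.19, adjusted p = 5.92e-04) and 0.84 (SE 0.19, adjusted p = 0.00231). Dio2 was at 158, 149.6 and 128 CPM, 249 and 312 CPM and 244 and 212 CPM, with 0.95 (SE 0.16, adjusted p = 5.49e-05) and 0.65 (SE 0.16, adjusted p = 0.00563). Neither gene had overlapping groups there. Aqp4 (0.90 with Bic at 45 min and 0.71 with KCl at 15 min), Slc4a4 (1.07 and 1.06), Fabp7 (0.71 and 0.85) and Slc15a2 (0.63 and 0.64) were called in both comparisons. Gja1 (0.97) and Ttyh1 (0.67) were called with Bic at 45 min, and Gpc4 with Bic (0.65) and KCl (0.59) at 15 min. The secreted proteins Apoe, Clu, Cst3, Sparc and Sparcl1 and all 4 receptors tested were called in 0 of the 6 comparisons.

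These counts were sensitive to a library of the shared basal group. Without basal replicate 5, whose title and description carry different replicate numbers, 2 genes instead of 6 were called with Bic at 15 min, 8 instead of 14 with Bic at 45 min, 7 instead of 12 with KCl at 15 min and 1 instead of 2 with KCl at 45 min. The summed level of the 35 genes was 9102 CPM in that library and 10087 and 10098 CPM in the other basal samples. Without Bic replicate 2 at 15 min the count was 2, without KCl replicate 2 at 15 min 6, and without KCl replicate 1 at 45 min 0. Without basal replicate 1 the count for KCl at 45 min was 1, and without basal replicate 2 that for Bic at 180 min was 1. Aldoc and Gfap stayed called with Bic at 15 and 45 min and with KCl at 15 min when any 1 library was left out and under every other setting tried, and so did Acsbg1 and Glul with Bic at 45 min and KCl at 15 min. The neuronal list was at 10678 and 11024 CPM with Bic at 45 min, above its basal range of 9303 to 10105 CPM, and the oligodendrocyte lineage list was at 1396 and 1619 CPM, above its basal range of 823 to 1270 CPM. Of the 36 further astrocyte genes, 12 of 34 were higher with Bic at 45 min and 12 with KCl at 15 min.

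The 8 genes that fell with 4AP+Bic at 180 min in the maturation experiment were all among those called higher in 4 comparisons of the stimuli experiment, which has other samples. They made up 32% of the 25 genes higher in basal TTX, 47.1% of the 17 higher at 180 min of TTXw, 57.1% of the 14 higher with Bic at 45 min and 66.7% of the 12 higher with KCl at 15 min. The same overlap was not computed over all genes, so that these shares have nothing to be read against. For Slc4a4 the transcript counted was not the same in both experiments. Most calls of the fall also depended on 4AP+Bic replicate 2, as given above. Those 4 comparisons are not independent of each other, since those with basal TTX, Bic and KCl share basal samples and those with basal TTX and TTXw share basal TTX samples. The stimuli also differed, since 4-aminopyridine was added only in the maturation experiment, and so did the label age. At the time point the experiments share for bicuculline, 180 min, Gfap was at 11.8 and 33.1 CPM against 88.7, 137 and 64.3 CPM in the maturation experiment with 4AP+Bic, and at 161 and 175 CPM against 102, 195 and 83.0 CPM in the stimuli experiment with Bic. Each was read within its own experiment, and the difference was not tested.

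KCl was given at the same dose in both experiments, which shared the times of 15 and 180 min. The label ages were 23DIV in the maturation experiment and 21DIV in the stimuli experiment. For Slc25a18 at 15 min the log2 fold change was -2.71 (SE 0.58) in the maturation experiment and 2.19 (SE 0.62) in the stimuli experiment, both past the threshold. The call in the stimuli experiment was lost without basal replicate 1 or 5 or KCl replicate 2, with counts summed over transcripts and with the replicate block, and on leaving out 1 library the log2 fold change ran from 1.79 to 3.07. The call in the maturation experiment was kept on leaving out any 1 library and in the other settings tried. Its basal levels were 19.7, 68.3 and 46.8 CPM in the maturation experiment and 2.01, 8.56 and 2.65 CPM in the stimuli experiment, which were normalized separately. For Aqp4 the values were -0.69 (SE 0.37), not past the threshold, and 0.71 (SE 0.20), for Glul -0.27 (SE 0.24) and 0.90 (SE 0.19), and for Gfap -0.02 (SE 0.31) and 1.35 (SE 0.22). Only the stimuli experiment had these 3 past the threshold. The difference between the experiments was not tested.

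Over all comparisons 31 of the 35 genes were called at least 1 time in 23 comparisons, with 124 calls, 109 higher and 15 lower. Of all 12484 genes tested in either experiment, 54.2% were called at least 1 time, and 54.9% of their calls were higher. Gfap and Aldoc were called in 9 comparisons each, Acsbg1 and Glul in 8, and Fabp7 and Slc25a18 in 7. Within groups the genes also varied together. After the mean of each group was removed, the median correlation between 2 members was 0.227 over the 28 libraries of the maturation experiment (465 pairs, 81.1% positive) and 0.211 over the 27 of the stimuli experiment (528 pairs, 79.5% positive), against 0.00 between all genes tested. All genes of a library share its depth and its culture, and these values are a description. Acsbg1 followed the mean of the other members most closely in the maturation experiment, with r = 0.919, and Slc1a3 in the stimuli experiment, with r = 0.758. Sparc had r = -0.18 in the maturation experiment. The genes outside the set most like its mean were Olig1 (r = 0.864), Tmem229a (0.851) and Ptprz1 (0.837) in the maturation experiment and Ngly1 (0.834), Tlk1 (0.786) and Bcan (0.780) in the stimuli experiment.

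Members that the filter left out were near the limit of these libraries, where a count of 3 in a basal library at 7DIV was 0.813 to 1.84 CPM. Slc7a10, an amino acid exchanger, ranged from 0 to 1.42 CPM at 7DIV, from 0 to 3.11 CPM at 21DIV of the maturation experiment, from 0 to 2.49 CPM in the stimuli experiment without TTX and from 0.755 to 5.31 CPM with TTX. Thbs1, a thrombospondin that promotes synapses, reached at most 2.17, 2.60, 2.67 and 3.27 CPM in the same sets of samples. Neither was tested in either experiment. F3, tissue factor, ranged up to 0.418 CPM at 7DIV and 1.43 CPM at 21DIV in the maturation samples, while among the stimuli samples it was tested and not called in 10 comparisons. Cyp4f14, a cytochrome P450, was at 0 counts in the basal samples at 7DIV and at 1.04, 1.43 and 1.99 CPM at 21DIV, and it was called higher at 21DIV (adjusted p = 0.0320) when no filter was applied. A lack of calls for these genes says that no change was detectable at this depth.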

How the data were processed

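RNA of 55 samples was measured with CEL-Seq2, which reads 3′ ends. The authors used STAR (mm10) for alignment and the End Sequence Analysis Toolkit for counting. They deposited raw whole-number counts per RefSeq transcript. Collapsing by molecular identifier is not stated, so intervals cover counting error only. Replicates differed beyond sampling noise (chi-square over degrees of freedom 2.17 to 20.2, 48 pairs). Samples were grouped by titles.

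Transcripts were matched to symbols by RefSeq of GRCm38. Unmatched ones, 18.5% and 19.2% of counts, were left out, since they carry no symbol. Genes over 5 CPM in 2 samples (11746 and 12027; 10510 in the basal comparison) entered edgeR 4.0.16 (R 4.3.3) with TMM normalization and its quasi-likelihood test. The basal ages were fitted on 6 samples, and each experiment otherwise as 1 fit. A call needed an adjusted p below 0.05 and 1.5-fold, an interaction the p alone. SE came from the F statistic. Simulated counts with known changes were tested first. All 35 genes were named. The members and lists were chosen with earlier results of these data known. Alternatives were RLE size factors, no filter, counts summed over transcripts, DESeq2 1.42.0, the replicate block, other sample sets, and leaving out each replicate. Same-numbered samples did not deviate together (r from -0.247 to 0.0995, 40 pairs), so the numbers were not used as pairs.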

Additional observations from a re-analysis of the deposited data

Results flagged for a closer look

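Basal TTX was the only group of 4 samples, the smallest size looked at. There, a value far from the other 3 was looked for in the 35 genes and their sum, 36 sets of values in all, and found in 3. Chance alone gives about 1 in 20. Gja1 was at 132 CPM in basal TTX replicate 1 and at 94.1 to 99.4 CPM in the other samples. Gjb6, the other connexin gene, was at 10.6 CPM in the same sample and at 5.01 to 5.81 CPM in the others. Clu was at 288 CPM in basal TTX replicate 3 and at 399 to 412 CPM in the others.

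The response to 180 min of 4AP+Bic differed between 21DIV and 7DIV by a test of the interaction for 5 genes. The differences in log2 response, 21DIV minus 7DIV, were -1.45 for Acsbg1 (SE 0.42, adjusted p = 0.0397), -1.73 for Aldoc (SE 0.39, adjusted p = 0.0089), -1.67 for Fabp7 (SE 0.38, adjusted p = 0.0103), -2.51 for Gfap (SE 0.59, adjusted p = 0.0123) and -1.52 for Glul (SE 0.38, adjusted p = 0.0180), from the edgeR fit. None of them passed without 4AP+Bic replicate 2 at 180 min at 21DIV.

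KCl samples at 21DIV lay on opposite sides of their basal samples in the 2 experiments for 3 of 70 pairs of a gene and a time, 2 of 35 genes at 15 min and 1 of 35 at 180 min, which was not tested. Of the 11289 genes tested in both experiments, 5.52% did so at 15 min and 2.67% at 180 min. Slc25a18 had a mean of 6.85 CPM after 15 min in the maturation experiment, below its basal samples, and was above them in the stimuli experiment. Aqp4 had a mean of 61.3 CPM after 15 min in the maturation experiment, below its basal samples, and was above them in the stimuli experiment. Clu had a mean of 249.7 CPM after 180 min in the maturation experiment, above its basal samples, and was below them in the stimuli experiment.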

How the results depend on the processing

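No direction reversed for any called gene under the alternatives run. For the called genes, 683 values under the alternatives stayed past the threshold and 61 did not, and on leaving out a library 645 stayed and 121 did not. Numbers of members called that moved by over 1.5 times were as follows. With no filter, KCl 15 min at 7DIV had 2, KCl 180 min at 7DIV 2, 4AP+Bic 15 min at 7DIV 1, KCl 180 min at 21DIV 4, the interactions of KCl 15 min, KCl 180 min and 4AP+Bic 180 min 4, 6 and 9, TTXw 45 min 2 and KCl 180 min of the stimuli experiment 1. With counts summed over transcripts, KCl 180 min at 7DIV had 0, KCl 15 min at 21DIV 1, TTXw 45 min 0 and KCl 45 min 1. In fits on the compared groups only, KCl 180 min at 21DIV had 2, the interactions of KCl 2 (15 min) and 1 (180 min), and KCl 180 min of the stimuli experiment 1. DESeq2 gave 0 for TTXw 45 min and 2 for KCl 180 min of the stimuli experiment, where RLE factors gave 1. The cause was not tested.

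With the replicate block the count was 0 for KCl 180 min at 7DIV, 2 for KCl 180 min at 21DIV, 2 for Bic 15 min, 8 for Bic 45 min, 6 for KCl 15 min and 1 for KCl 45 min, and it stayed within 1.5 times elsewhere, with 24 for the basal ages, 8 for 4AP+Bic 180 min at 21DIV, 24 for TTX and 16 for TTXw 180 min.

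Leaving out 1 library gave 26 to 28 members between the basal ages, 0 to 1 for KCl 180 min at 7DIV, 1 to 6 for KCl 15 min and 1 to 5 for KCl 180 min at 21DIV, 1 to 11 for 4AP+Bic 180 min, 0 to 1, 0 to 3 and 0 to 8 for the interactions of KCl 15 min, KCl 180 min and 4AP+Bic 180 min, 23 to 28 for TTX, 0 to 1 for TTXw 45 min, 13 to 19 for TTXw 180 min, 2 to 7, 8 to 13 and 0 to 1 for Bic at 15, 45 and 180 min, and 6 to 11 and 0 to 3 for KCl at 15 and 45 min. Depth limits Gjb6, Gpr37l1 and S100b at 7DIV, which rest on few counts.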

Other observations

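Of 28 genes known as signs of reactive astrocytes, 19 were tested in the stimuli experiment. In basal TTX against basal, 3 were higher, among them Serpina3n (log2 fold change 1.89), a protease inhibitor of reactive astrocytes, and 7 were lower, among them the prostaglandin synthase Ptgs2 (-3.70) and Cd44 (-1.11), the receptor of hyaluronan. Of all genes tested there, 10.8% were called higher and 10.8% lower. Neurons also express Ptgs2, and which cells held the transcripts of the other genes of this list was not tested. At 180 min of TTXw the median log2 fold change of the 19 was 1.76. Of all genes tested, 7.33% were called higher there, and of the 19 genes 13 were higher and 0 lower. Emp1 (5.09), Timp1 (2.76), an inhibitor of metalloproteases, Cd44 (1.92) and Lcn2 (1.56), which encodes lipocalin 2, were among them. At 180 min of 4AP+Bic at 21DIV, 12 were tested, 5 were higher, among them Emp1 (4.64), and 1, Srgn (-3.08), was lower. In that comparison 7.39% of all genes were called higher and 6.84% lower. Between the basal ages, 10 were tested, and 6 were higher and 4 lower at 21DIV, where 18.2% and 14.9% of all genes were.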
